A study of Mus musculus with 2 samples.

Results

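The 9 genes described here encode the calcium-binding S100 proteins S100a4, S100a6, S100a10 and S100a11, the annexins Anxa2, Anxa5 and Anxa6, the lectin galectin-1 (Lgals1) and the scaffold protein Ahnak. They were chosen by name, with earlier results of these data known, and all 9 were found among the 19837 genes of the deposited table. RNA of single spleen T cells was sequenced on the BD Rhapsody platform, from female mice of the strain C57/BL6N. Mice were given remimazolam, a short-acting benzodiazepine, at 6 mg/kg for 4 h or for 8 h, or were given saline, which the labels place at 0 h. The cells of the 3 mice of a treatment were joined under 1 sample tag before capture, so each treatment is 1 pool: the 4 h pool, the 8 h pool and the saline pool. The mice carry no other allele or agent in the labels, their age is not given there, and there was no saline pool at 4 h or 8 h.

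Antigen-experienced T cells differ from naive ones in adhesion, migration and the ability to secrete quickly. S100 proteins and annexins act at the inner face of the plasma membrane and on the cortical actin skeleton, where they serve in motility, vesicle fusion and membrane repair. S100a10 pairs with annexin A2, and Ahnak binds that complex, so several of these products work in the same membrane assemblies. In mouse spleen, S100a4, S100a6 and Ahnak are commonly listed among the genes of memory and effector T cells.

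Of the 4 S100 genes, all lie on chromosome 3 of GRCm38 (GENCODE M21): S100a4 at chr3:90603771-90606045, S100a6 at chr3:90612882-90624181, S100a11 at chr3:93520488-93526287 and S100a10 at chr3:93555080-93564643, each on the plus strand. Anxa5 lies on the same chromosome at chr3:36448923-36475894 on the minus strand. Anxa2 is at chr9:69453620-69491795 (plus), Anxa6 at chr11:54979108-55033445 (minus), Lgals1 at chr15:78926725-78930465 (plus) and Ahnak at chr19:8989284-9076914 (plus). All 9 are annotated as protein coding.

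RefSeq promoter windows of 250 bases before to 50 bases after the gene start were matched for 6 members (S100a4, S100a6, S100a11, Anxa2, Anxa5 and Ahnak). Each window was searched on both strands for AP-1 letters (TGANTCA), T-box letters (AGGTGTG), KLF letters (CACACCC) and NF-kB type letters (GGAANTCC). S100a11 held the AP-1 letters at 136 and 38 bases before its start and Anxa2 held them at 95 bases before, while 7.81% of 32851 mouse promoters held them. Anxa5 held the KLF letters at 108 bases before its start, against 7.95% of promoters. S100a4, S100a6 and Ahnak held none of the 4 motifs, and no member held the T-box letters (5.84% of promoters) or the NF-kB type letters (4.77%). A match is a description of letters only. The 150 bases before the start are shown for S100a11 and Anxa2, which rose in CD4 memory over CD4 naive cells below. They are also shown for S100a4, which rose in that contrast without any of these letters, and for Anxa5, which did not pass the test in it. They are printed 5′ to 3′ on the gene's own strand in RefSeq GRCm38.p6, and capitals mark the AP-1 or KLF letters.
S100a11 (chr3:93520346-93520495, plus): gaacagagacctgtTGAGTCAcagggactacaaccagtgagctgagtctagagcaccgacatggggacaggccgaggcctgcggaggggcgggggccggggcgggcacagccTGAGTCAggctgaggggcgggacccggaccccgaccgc
Anxa2 (chr9:69453533-69453682, plus): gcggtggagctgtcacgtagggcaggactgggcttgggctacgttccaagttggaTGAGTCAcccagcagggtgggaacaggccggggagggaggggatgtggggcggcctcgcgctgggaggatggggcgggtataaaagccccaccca
S100a4 (chr3:90603620-90603769, plus): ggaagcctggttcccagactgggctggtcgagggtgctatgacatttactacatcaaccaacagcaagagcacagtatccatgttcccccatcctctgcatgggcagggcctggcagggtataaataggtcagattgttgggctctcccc
Anxa5 (chr3:36475888-36476037, minus): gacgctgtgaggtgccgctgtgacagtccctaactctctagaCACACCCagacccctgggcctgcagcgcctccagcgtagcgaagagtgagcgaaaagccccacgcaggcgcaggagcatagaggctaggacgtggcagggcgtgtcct

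The T cell gate held 15534 of 16123 kept cells, with 5210 cells in the 4 h pool, 5217 in the 8 h pool and 5107 in the saline pool. The pools were even in depth, with a median of 2512 to 2533 molecules per T cell and 13868454 to 14161774 molecules in all. Levels are given as CPM, the molecules of a gene per 1000000 molecules of the same cells. T cells were sorted into gates by whether molecules of lineage genes were detected, and no member was used to set a gate. The CD4 memory gate (374 cells) took cells with Cd4, without Cd8a, Cd8b1 and a set of genes of the naive state that includes Ccr7, and with at least 2 molecules over 6 genes of activated or memory cells (Cd44, Itgb1, Maf, Cxcr3, Icos, Il2rb). The CD4 naive gate (3660 cells) took cells with Cd4 and with any gene of that naive set, and without Itgb1, Maf, Cxcr3 and Il2rb. The CD8 memory gate (3111 cells) required 2 molecules over Ccl5, Il2rb, Cxcr3, Eomes and Nkg7, and the CD8 naive gate (1368 cells) required a gene of the naive set and none of those genes. Cells with Foxp3, the factor of regulatory T cells, were divided into a central gate with a gene of the naive set (507 cells) and an effector-type gate without them (183 cells). Further gates held NK-T-type cells (224), gamma delta cells (314) and follicular helper cells (27).

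The CD8 memory gate was broad. Only 24.3% of its cells had a molecule of Ccl5, the chemokine gene that marks differentiated CD8 memory cells, and its cells carried a median of 3079 molecules, against 2380.5 in the CD8 naive gate. A narrower gate on 2 molecules of Ccl5 (201 cells in the 4 h pool, 196 in the 8 h pool and 182 in the saline pool) was therefore added after the data were seen, and its values are given beside the CD8 results. The CD4 gates were even in depth, with medians of 2459.5 molecules in the memory gate and 2401 in the naive gate. In the CD4 memory gate the 4 plasma cell genes summed to 95.5 CPM in the 4 h pool, 53.4 in the 8 h pool and 57.3 in the saline pool, above the 41.2 to 45.2 CPM over all T cells of a pool. Jchain was at 0 there in every pool, Sdc1 in the 8 h and saline pools and Mzb1 in the saline pool. The saline sum was therefore Xbp1 alone. The 4 B cell genes, which the T cell gate limits, summed there to 9.55 CPM in the 4 h pool, 4.85 in the 8 h pool and 0 in the saline pool. The 4 myeloid genes in the table, limited in the same way, summed there to 9.55, 7.28 and 6.03 CPM in the same pools, with Csf3r at 0 in all 3, and the 5 neutrophil genes to 3.18, 0 and 0 CPM.

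Molecules of the members were unevenly spread over the T cells. Naive CD4 and CD8 cells held 29.0% of all T cell molecules, but only 1.71% of the S100a4 and 1.56% of the S100a6 molecules. They held 3.93% of the Anxa2, 7.78% of the Ahnak and 12.9% of the Lgals1 molecules. The share was 16.7% for S100a11, 20.0% for S100a10 and 24.0% for Anxa6, and for Anxa5 it was 31.1%, close to the share of all molecules. The CD4 memory gate, with 2.51% of all molecules, held 23.1% of S100a4, 17.1% of S100a6 and 10.6% of Anxa2. The members thus ran from genes scarce in the naive gates (S100a4, S100a6, Anxa2) to Anxa5, which was divided much as all molecules were.

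**Figure D1:**
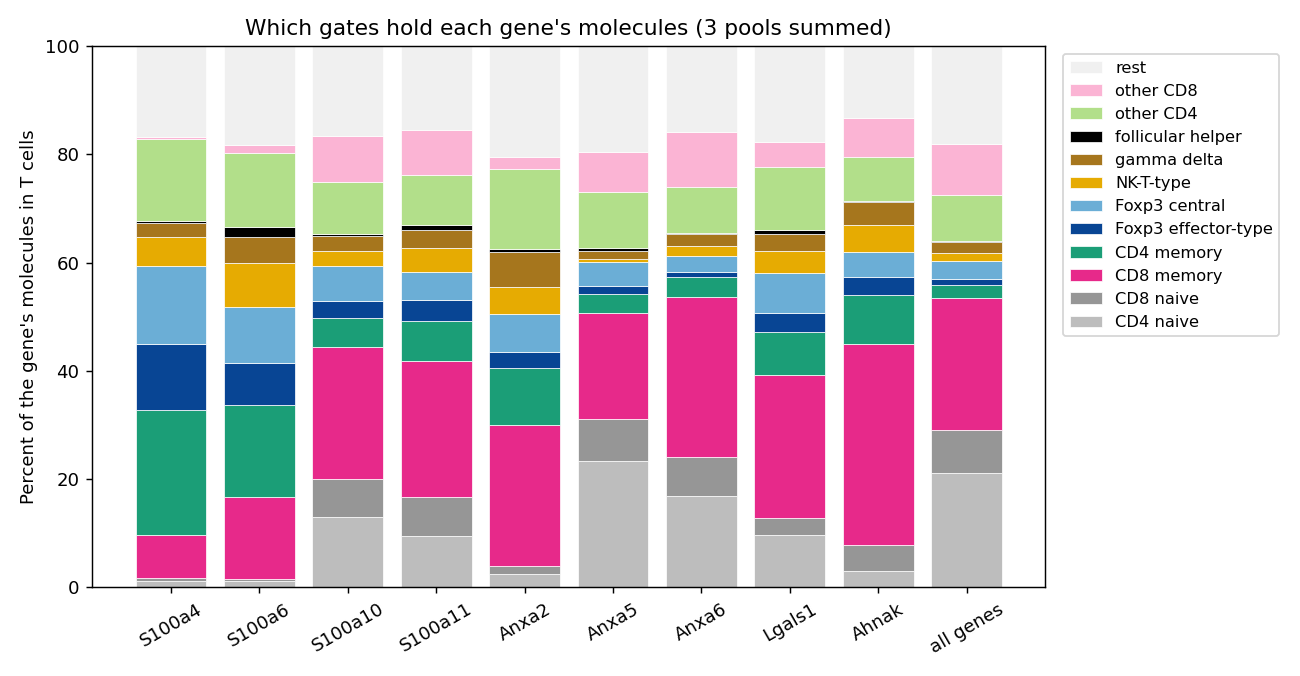
Share of each gene's T cell molecules found in each gate, in percent, over the 3 pools together, with all molecules as the last bar. The naive gates take 29.0% of all molecules but 1.71% of S100a4, and Anxa5 (31.1% in the naive gates) is divided much like all molecules.

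S100a4, a motility protein that binds non-muscle myosin, had the largest share of its molecules in the CD4 memory gate. In the CD4 memory gate it stood at 267 CPM in the 4 h pool, 223 in the 8 h pool and 205 in the saline pool. In the CD4 naive gate it stood at 1.42, 1.29 and 1.33 CPM in the same pools. Every memory value lay above every naive value, and the naive values rest on 4 molecules in each pool. They were no higher than the 1.69 CPM found in 241 B-type cells of these libraries, a cell type that should hold little of it. That B-type value rests on 1 molecule, too few to set a background level. S100a4 was highest in the Foxp3 effector-type gate (263 ± 9.89 CPM, SD over the 3 pools), whose range overlapped that of the CD4 memory gate (232 ± 31.9). The Foxp3 central gate followed at 112 ± 23.3 CPM without overlap, then NK-T-type cells (91.2 ± 53.8) and gamma delta cells (36.9 ± 21.6), and the CD8 memory gate held 8.19 ± 0.935 CPM.

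S100a6 (calcyclin) was scarce in naive cells too. It stood at 589 CPM (4 h), 464 (8 h) and 456 (saline) in the CD4 memory gate, against 2.13, 6.78 and 2.65 CPM in the CD4 naive gate of those pools. B-type cells held 3.37 CPM, on 2 molecules, which is too few to rank them against the naive gate. The Foxp3 effector-type gate (488 ± 15.8 CPM) overlapped the CD4 memory gate (503 ± 74.6). The NK-T-type gate (389 ± 55.0) came next and then the Foxp3 central gate (233 ± 35.6), both without overlap with the gate before. The 27 follicular helper cells spread too widely to be placed, from 59.9 to 1365 CPM over the pools.

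S100a10, the partner of annexin A2, and S100a11, which binds annexins A1 and A2, were found in every gate. S100a10 stood at 687 CPM (4 h), 592 (8 h) and 588 (saline) in the CD4 memory gate, against 165, 184 and 190 CPM in the CD4 naive gate. Its highest gate was the Foxp3 effector-type gate, at 821 CPM (4 h), 901 (8 h) and 700.1 (saline), which lay above all 3 pools of the CD4 memory gate. S100a11 stood at 601 CPM (4 h), 687 (8 h) and 489 (saline) in the CD4 memory gate, against 106, 83.6 and 90.2 CPM in the CD4 naive gate. B-type cells held 206 CPM of S100a10 and 229 CPM of S100a11, more than the CD4 naive gate held in any pool. The 24 myeloid-type cells, read from all pools together, held 4891 CPM of S100a11 and 2552 CPM of S100a6.

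The 3 annexins went separate ways. Anxa2, which bridges membranes and cortical actin, stood at 111 CPM (4 h), 165 (8 h) and 187 (saline) in the CD4 memory gate, against 2.84, 4.20 and 5.97 CPM in the CD4 naive gate. B-type cells held 6.75 CPM of Anxa2, on 4 molecules. Anxa6, a large annexin of endosomes and the plasma membrane, was abundant throughout: 831 CPM (4 h), 726 (8 h) and 706 (saline) in the CD4 memory gate, against 377, 417 and 420.4 CPM in the CD4 naive gate. Its CD4 memory level lay above the range of the next gate, gamma delta cells, at 629 ± 51.5 CPM. Anxa5, the phosphatidylserine-binding annexin used to stain dying cells, stood at 102 CPM (4 h), 72.8 (8 h) and 96.6 (saline) in the CD4 memory gate, against 73.8, 74.6 and 57.0 CPM in the CD4 naive gate, and these ranges overlapped. Its lowest gate was the NK-T-type gate (25.7 ± 6.54 CPM), below the CD8 memory gate (49.4 ± 4.56) without overlap.

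Lgals1, a galactose-binding lectin that regulatory T cells use in suppression, stood at 487 CPM (4 h), 490.2 (8 h) and 474 (saline) in the CD4 memory gate, against 57.5, 77.2 and 73.3 CPM in the CD4 naive gate. The Foxp3 effector-type gate (426 ± 135 CPM) overlapped that range, and the Foxp3 central gate (351 ± 38.2 CPM) lay below it. Ahnak, the giant scaffold that binds the annexin A2 complex and calcium channels, stood at 595 CPM (4 h), 468 (8 h) and 444 (saline) in the CD4 memory gate, against 13.5, 26.5 and 18.2 CPM in the CD4 naive gate. Unlike S100a4, Ahnak was plentiful in CD8 cells, at 212 ± 34.0 CPM in the CD8 memory gate and 84.9 ± 19.7 CPM in the CD8 naive gate. The CD8 memory gate, with 24.4% of all molecules, held 37.3% of the Ahnak but 7.97% of the S100a4 molecules.

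**Figure D2:**
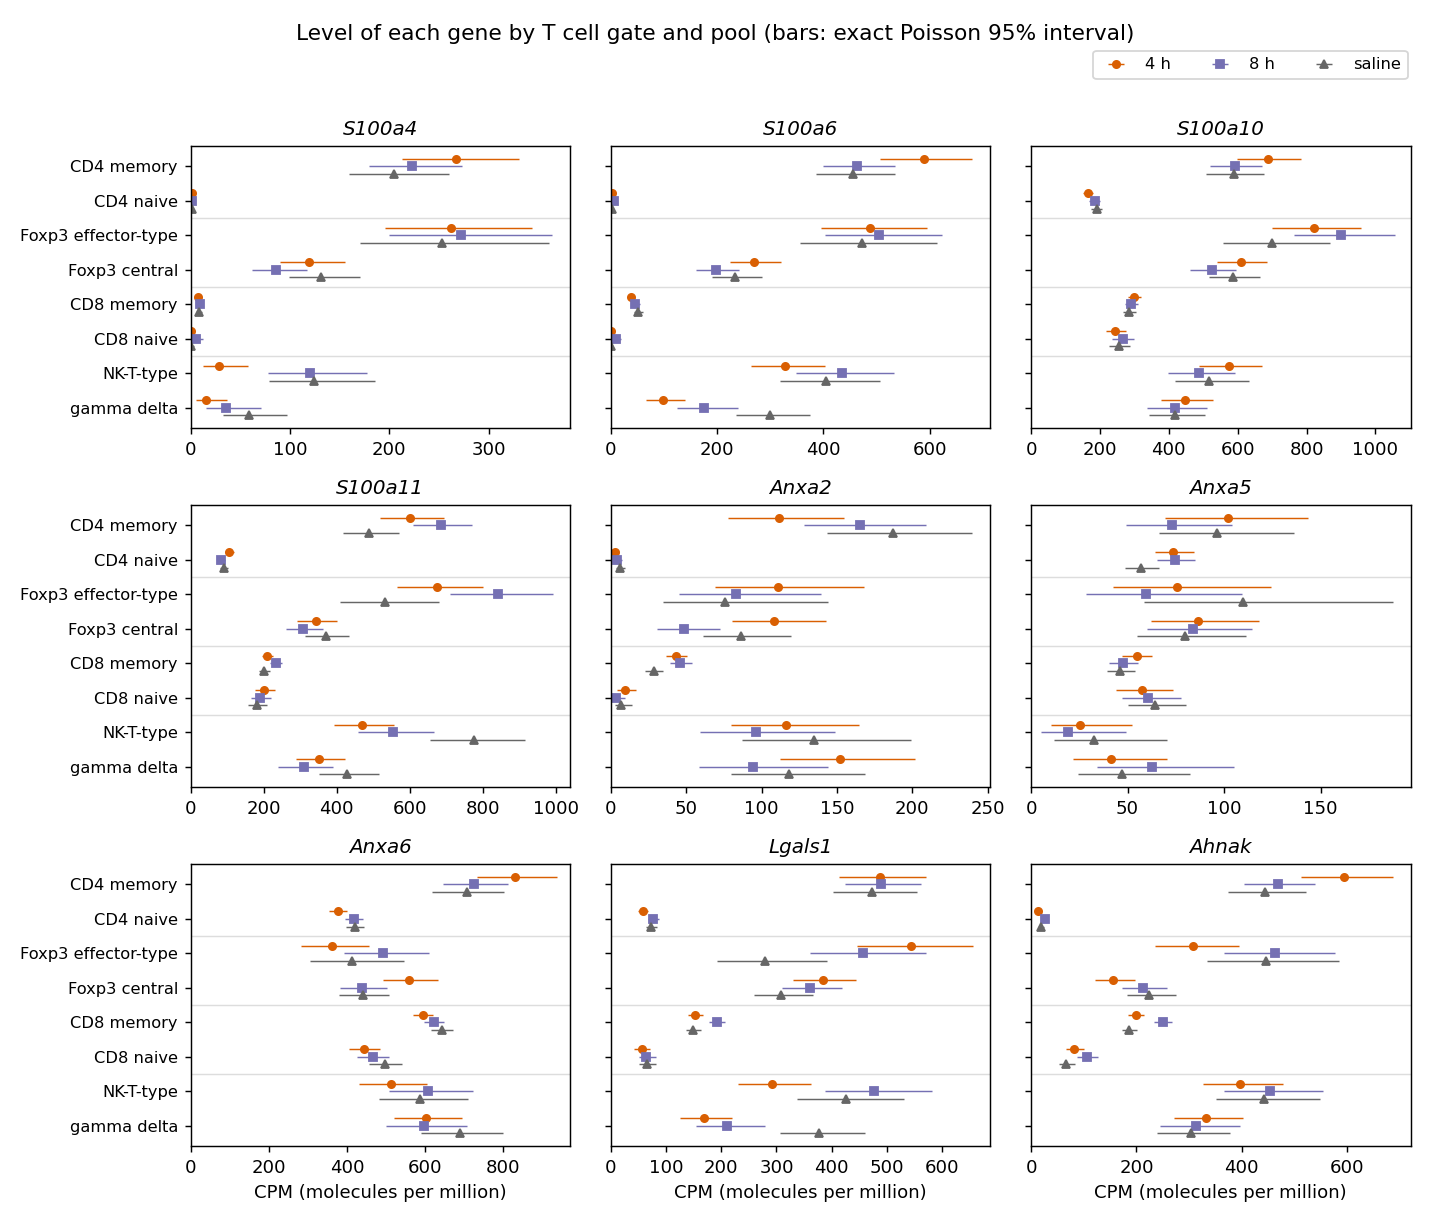
Level of each gene in CPM (x axis) in 8 gates, with 1 point per pool and exact Poisson 95% intervals as bars. S100a4 in the CD4 memory gate (205 to 267 CPM) lies far above the CD4 naive gate (1.29 to 1.42 CPM), while the pools of both gates lie between 57.0 and 102 CPM for Anxa5.

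The first contrast asked how CD4 memory cells differ from CD4 naive cells. In edgeR's quasi-likelihood test on molecules summed per gate and pool, 8 of the 9 members rose in the CD4 memory gate, beside 12.3% of all 6995 genes tested that rose. S100a4 rose by 7.20 ± 0.31 on the log2 scale (SE, adjusted p = 1.17e-32), S100a6 by 6.85 ± 0.26 (adjusted p = 1.87e-35) and Anxa2 by 5.02 ± 0.27 (adjusted p = 9.88e-27). Ahnak rose by 4.56 ± 0.16 (adjusted p = 1.93e-38), Lgals1 by 2.69 ± 0.15 (adjusted p = 1.55e-25) and S100a11 by 2.58 ± 0.13 (adjusted p = 6.45e-29). The smallest rises were those of S100a10, at 1.68 ± 0.10 (adjusted p = 8.51e-25), and Anxa6, at 0.79 ± 0.09 (adjusted p = 2.67e-11). Anxa5 did not pass the test, at 0.28 ± 0.18 (adjusted p = 0.305). With gates split by the naive set alone the same 8 passed with smaller rises, at 3.08 for S100a4, 2.84 for S100a6, 2.35 for Ahnak and 1.88 for Anxa2. Each of the 8 was higher in the memory gate of all 3 pools, and the median log2 change of the 9 was 2.69, beside 0.0092 over all genes. The 3 pools are differently treated groups of mice and not repeats of 1 treatment. Pool was a term of the fit, so a shift shared by all gates of a pool is taken out. The p-values rest on how unevenly the gates moved from pool to pool, and do not measure the spread between mice.

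Most listed memory genes that were neither members nor gate genes moved with them, though the list too was chosen with earlier results known. Of 15 such genes, 13 rose, among them Id2, a transcriptional regulator of effector cells (log2 change 2.63), the integrin chain Itga4 (1.45) and the adhesion molecule Cd48 (0.98). Emp3 (−0.24, adjusted p = 0.146) and Ifngr1 (0.22, adjusted p = 0.408) did not pass the test. All 10 naive genes fell, with Igfbp4 at −3.59, Satb1 at −2.30 and Lef1, a factor of the naive state, at −2.21. The relatives of the members were mostly too rare to test: 2 of 12 other S100 genes entered the test and S100a13 rose (1.04). Of 9 other annexins, Anxa7 and Anxa11 entered it and neither passed. Among 9 other galectins and the Ahnak paralog, 4 entered and Lgals3 and Lgals3bp (0.94) rose. Of 18 cytoskeleton and membrane partners, 9 rose, including the actin-capping gene Capg (1.70), Vim (0.97) and Lsp1 (0.84), and 4 fell: Tmsb10 (−0.49), Plec (−0.48), Ezr (−0.38) and Msn (−0.34), of which Ezr and Msn link actin to the membrane. Of 8 genes of membrane repair and plasminogen binding, 5 entered and the calpain genes Capn2 (1.00) and Capns1 (0.79) rose. The lists overlap, since Capg and Vim are also among the 15 memory genes and Emp3 is also among the 8 of membrane repair.

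The same question in CD8 cells gave 6 rises among the 9 members in the CD8 memory gate, beside 3.45% of all genes, with a median log2 change of 1.34 over the members and 0.0049 over all genes. S100a6 stood at 38.1 CPM (4 h), 46.4 (8 h) and 51.9 (saline) in the CD8 memory gate, against 0.913, 10.3 and 0.877 CPM in the CD8 naive gate, where the 4 h and saline values rest on 1 molecule each. It rose by 3.51 ± 0.44 (adjusted p = 4.27e-09), and by 5.49 without the 8 h pool. Anxa2 rose by 2.55 ± 0.30 (adjusted p = 6.9e-10), Lgals1 by 1.42 ± 0.16 (adjusted p = 9.02e-11), Ahnak by 1.34 ± 0.12 (adjusted p = 2.97e-14) and Anxa6 by 0.42 ± 0.07 (adjusted p = 3.33e-05). S100a4 stood at 7.29 CPM (4 h), 9.15 (8 h) and 8.14 (saline) in the CD8 memory gate. In the CD8 naive gate it had 0 molecules in the 4 h and saline pools, so that it was at least 2.66-fold and at least 3.09-fold higher in the memory gate of those pools, counted against a floor of 3 molecules per pool. In the 8 h pool the naive gate held 5.61 CPM of S100a4 and the ratio was 1.63. The call on S100a4 (2.12, adjusted p = 0.0158) was lost without the 4 h pool (1.65, adjusted p = 0.103) and without the saline pool (1.55, adjusted p = 0.209). It was also lost, at log2 changes as large, in DESeq2 (2.21, adjusted p = 0.0688) and with cells thinned to 1000 molecules (2.22, adjusted p = 0.0783).

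S100a10 (0.21, adjusted p = 0.139), S100a11 (0.18, adjusted p = 0.42) and Anxa5 (−0.28, adjusted p = 0.288) did not pass in the broad CD8 memory gate. With the gate on Ccl5, 8 members rose, beside 7.05% of all genes, and 1 fell, beside 5.01%: S100a10 (0.55, adjusted p = 6.91e-05) and S100a11 (0.49, adjusted p = 0.0088) rose and Anxa5 fell (−0.66, adjusted p = 0.023). The rises of the other 6 were larger in that gate, at 5.25 for S100a6, 3.89 for Anxa2, 3.66 for S100a4, 2.38 for Ahnak, 2.36 for Lgals1 and 0.60 for Anxa6. Among the lists, 7 of the 15 memory genes rose in the broad gate and Itga4 fell (−0.29), 7 of the 10 naive genes fell, and 4 of the 18 cytoskeleton genes rose, Vim (0.53) and Actg1 (0.42) leading. Of the relatives, Lgals3 and Capns1 (0.39) rose, and no other S100 gene or annexin passed.

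The rise from naive to memory was larger in CD4 than in CD8 cells for 8 members by the test of the difference itself, beside 4.75% of all genes. The difference in log2 change was 3.22 for Ahnak (adjusted p = 2.93e-21), 2.40 for S100a11 (adjusted p = 6.51e-20) and 1.47 for S100a10 (adjusted p = 2.66e-15), and for Anxa5 it was 0.56 (adjusted p = 0.124). For Ahnak, S100a10 and S100a11 the naive levels differed too: Ahnak stood at 82.2 CPM (4 h), 106 (8 h) and 66.7 (saline) in the CD8 naive gate, above all 3 pools of the CD4 naive gate. The differences of S100a4 (5.08) and S100a6 (3.35) were 1.19 (adjusted p = 0.921) and 2.10 (adjusted p = 0.715) without the 8 h pool, which held 6 of the 6 S100a4 and 11 of the 13 S100a6 molecules of the CD8 naive gate. With the CD8 gate on Ccl5, the differences of Ahnak (2.16), S100a11 (2.06), S100a10 (1.11), S100a4 (3.47) and Anxa5 (0.92) passed the test, beside 3.13% of all genes, and those of S100a6 (1.56), Anxa2 (1.09), Lgals1 (0.31) and Anxa6 (0.17) did not. In DESeq2 6 differences passed, and those of Lgals1 (1.28, adjusted p = 0.158) and Anxa6 (0.37, adjusted p = 0.0798) did not. With gates that needed 2 molecules 5 passed, and those of S100a4 (4.24, adjusted p = 0.199), S100a6 (2.14, adjusted p = 0.421) and Anxa6 (0.27, adjusted p = 0.0791) did not. With gates split by the naive set alone, 2 differences passed, and those of S100a4 (−0.75), S100a6 (−0.45), Anxa2 (−0.25) and Lgals1 (−0.66) turned in sign without passing.

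Among Foxp3 cells, 5 of the 9 members rose in the effector-type gate over the central gate, beside 1.82% of all genes. S100a4 stood at 262 CPM (4 h), 273 (8 h) and 253 (saline) in the effector-type gate, against 119, 86.1 and 131 CPM in the central gate, a log2 change of 1.19 ± 0.24 (adjusted p = 0.00042). S100a6 rose by 1.03 ± 0.22 (adjusted p = 0.00104), S100a11 by 0.98 ± 0.16 (adjusted p = 7.4e-06) and Ahnak by 0.95 ± 0.19 (adjusted p = 0.000242). S100a10 rose by 0.45 ± 0.12 (adjusted p = 0.00963), a call lost without the 8 h pool (0.31, adjusted p = 0.395). Lgals1 (0.29, adjusted p = 0.554), Anxa2 (0.13, adjusted p = 0.925), Anxa5 (−0.16, adjusted p = 0.886) and Anxa6 (−0.24, adjusted p = 0.52) did not pass. With cells thinned to 1000 molecules Lgals1 passed (0.98, adjusted p = 0.018). The calls of S100a4 and S100a6 were lost under DESeq2 at log2 changes of about the same size (1.19 with adjusted p = 0.123, and 1.0 with adjusted p = 0.563). With gates that needed 2 molecules they were lost at smaller ones (0.77 with adjusted p = 0.15, and 0.63 with adjusted p = 0.204), as was that of S100a10 (0.31, adjusted p = 0.249). Of the lists, 9 of 10 naive genes fell, led by Igfbp4 (−3.55), 3 of 15 memory genes rose, led by Prdm1 (1.73), a factor of effector cells, and Ccr2 (1.59), and Tmsb10 (−0.35) was the only cytoskeleton gene to pass.

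**Figure D3:**
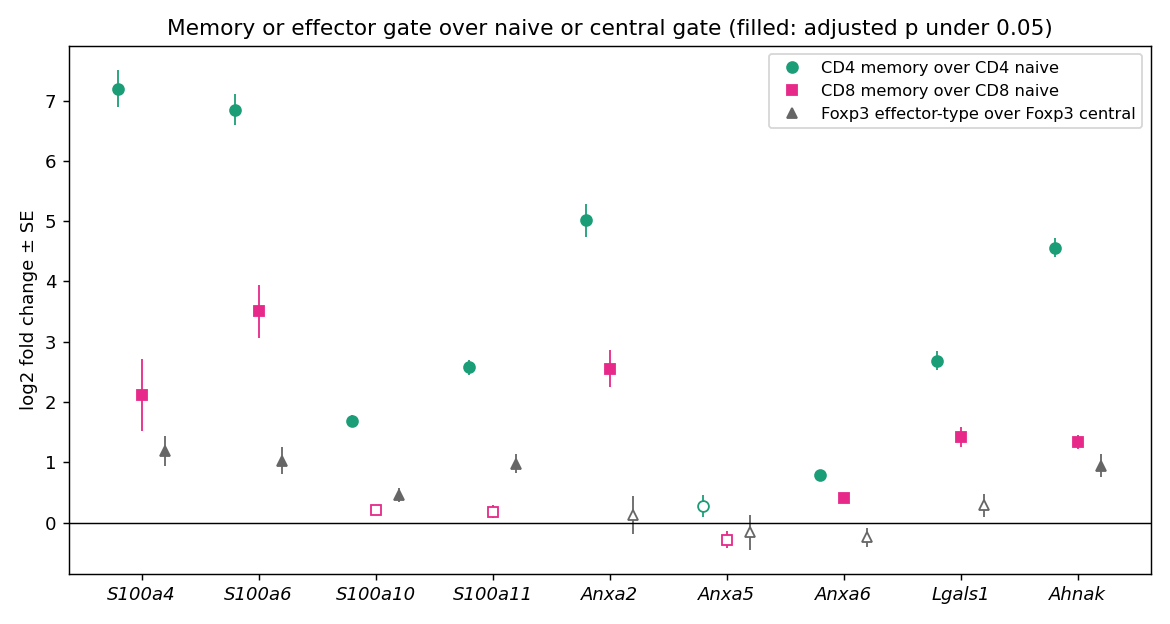
Log2 change of each gene (x axis) in the memory or effector gate over the naive or central gate, for CD4, CD8 and Foxp3 cells, with standard errors; filled points have an adjusted p under 0.05. The CD4 points reach 7.20 for S100a4, and Anxa5 (0.28, −0.28 and −0.16) is open in all 3.

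Gates of antigen-experienced cells were also set against each other. CD4 memory cells exceeded CD8 memory cells for 8 members, beside 10.4% of all genes, by 4.65 ± 0.23 for S100a4 and 3.31 ± 0.18 for S100a6 down to 0.70 ± 0.19 for Anxa5 (adjusted p = 0.00351, and 0.068 without the saline pool), while Anxa6 did not pass (0.13, adjusted p = 0.359). Against the Ccl5 gate, 5 differences passed, beside 6.66% of all genes (S100a4 at 3.05, S100a6 at 1.52, Anxa5 at 1.06, S100a11 at 0.99, S100a10 at 0.58) and those of Anxa2 (0.48, adjusted p = 0.126), Lgals1 (0.43, adjusted p = 0.0627) and Ahnak (0.03, adjusted p = 0.952) did not. With gates split by the naive set alone 1 member was higher in CD4 memory cells (S100a4 at 1.28, adjusted p = 0.00737) and Lgals1 was lower (−0.69, adjusted p = 0.0102). Ahnak stood in the Ccl5 gate at 436 CPM (4 h), 483 (8 h) and 361 (saline). In Foxp3 effector-type cells 0 members rose over CD4 memory cells in edgeR, beside 2.29% of all genes, with 1 at an unadjusted p under 0.05 and 1 in DESeq2: S100a10, which missed the threshold in edgeR (0.38, adjusted p = 0.0556) and passed in DESeq2 (adjusted p = 0.0112). Anxa6 fell there (−0.85 ± 0.14, adjusted p = 1.04e-05), beside 2.02% of all genes.

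NK-T-type cells had lower S100a4 than CD4 memory cells (−1.42, adjusted p = 5.47e-05), and lower Anxa5 (−1.79, adjusted p = 0.000164) and Anxa6 (−0.39, adjusted p = 0.0369), beside 2.94% of all genes. S100a4 stood at 29.1 CPM (4 h), 120.6 (8 h) and 124 (saline) in NK-T-type cells, and its call was lost without the 4 h pool (−0.78, adjusted p = 0.0974). That of Anxa6 was lost without the 4 h pool (−0.23, adjusted p = 0.506) and without the 8 h pool (−0.46, adjusted p = 0.075), and also in DESeq2 (adjusted p = 0.0652), with only the gates compared (0.0565), with stricter cells (0.056), with gates that needed 2 molecules (0.385), with the naive set alone (0.855) and in the fit with the Ccl5 gate (0.0701). The call of Anxa5 was lost with gates that needed 2 molecules (−1.02, adjusted p = 0.137), and that of S100a4 with the naive set alone (−0.60, adjusted p = 0.256). With thinned cells Lgals1 was lower too (−1.08, adjusted p = 0.0243). With the naive set alone S100a10 (0.35, adjusted p = 0.0463), S100a11 (0.62, adjusted p = 0.00237) and Ahnak (0.59, adjusted p = 0.0032) were higher in NK-T-type cells. Gamma delta cells exceeded CD8 memory cells for 6 members, beside 4.4% of all genes, led by S100a4 (1.96) and S100a6 (1.89). The gates differed in depth (medians of 2374 molecules in gamma delta and 3079 in CD8 memory cells), and with cells thinned to 1000 molecules 0 of the 6 calls were left, with S100a4 at 1.8 (adjusted p = 0.0934) and S100a6 at 0.76 (adjusted p = 0.0893). The gates were drawn again on the thinned cells. The CD8 memory gate then held 425 (4 h), 403 (8 h) and 375 (saline) cells, against 1093, 1015 and 1003 before. Depth and the make-up of the gate thus changed together in that fit. DESeq2 gave 4, and the naive set alone 0. Against the Ccl5 gate 0 members rose in edgeR, beside 2.38% of all genes and with 0 at an unadjusted p under 0.05, and Ahnak was lower in gamma delta cells (−0.58, adjusted p = 0.00467), beside 3.19% of all genes. Without the saline pool 2 of the 6 calls on the broad gate were left. In the 27 follicular helper cells 3 members were lower than in CD4 memory cells, beside 1.89% of all genes, but the median of all genes lay at −0.24 in that contrast, and the count was 1 without the 4 h pool and 5 without the saline pool.

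Cells with 1 member held most of the other members more often than cells without it, and Anxa5 was the exception. Each cell was thinned to 1000 molecules so that depth did not set the result. Of 207 thinned T cells with a molecule of S100a4, 55.6% had S100a6, against 2.61% of the 15246 without. Lgals1 was found in 51.2% of the cells with S100a4, against 8.55% of those without, Ahnak in 42.0% against 8.93%, and S100a11 in 60.4% against 14.8%. Anxa5 was found in 5.31% of the cells with S100a4 and in 5.82% of those without. The gates differ in all of these genes, so the shares were also taken within gates. Among the CD4 memory cells, 39 had S100a4, and S100a6 was found in 51.3% of them, against 18.9% of the rest, and Lgals1 in 51.3%, against 20.4%. In the Foxp3 central gate, where 27 cells had S100a4, 70.4% of them had S100a6 and 81.5% had S100a11, against 4.84% and 12.6% of the rest. These shares describe cells of 3 pools and carry no test.

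**Figure D4:**
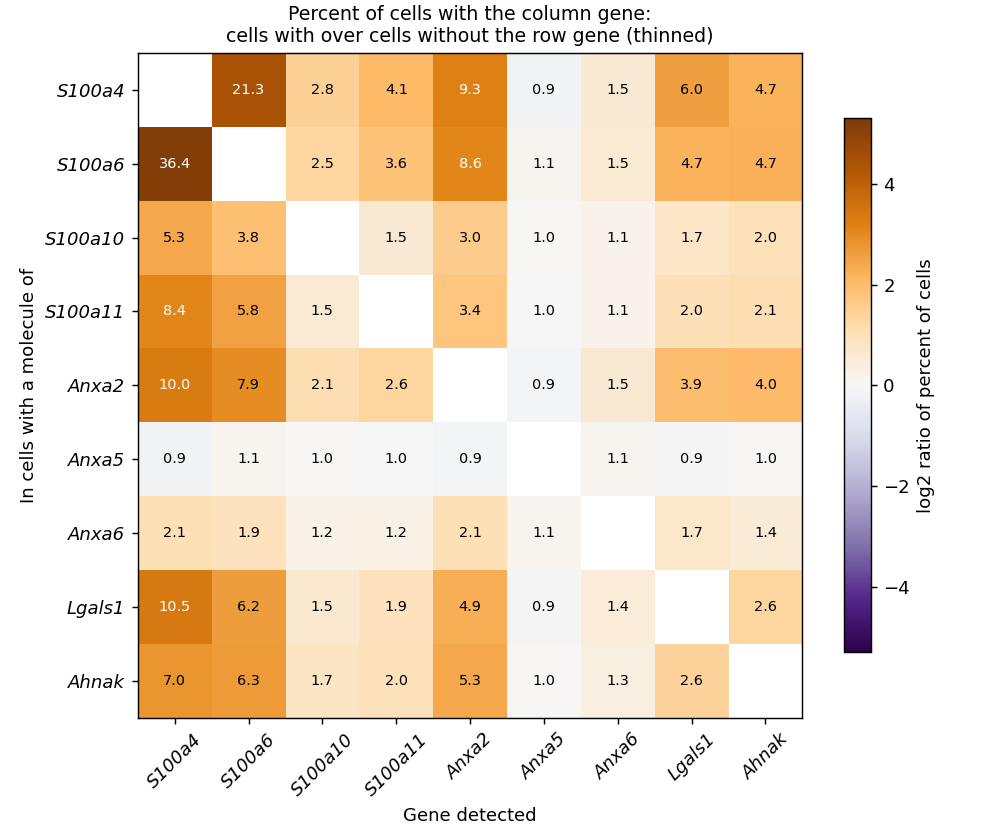
Share of cells with a second gene among cells with a first gene, divided by the share among cells without it, in T cells thinned to 1000 molecules each; colour gives the ratio on a log scale. Cells with S100a4 held S100a6 in 55.6%, against 2.61% of cells without it, and the Anxa5 cells of the grid lie near a ratio of 1.

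The number of members detected per thinned cell followed the gates. CD4 memory cells had on average 2.52 members (4 h), 2.20 (8 h) and 2.0 (saline), against 0.664, 0.688 and 0.714 in CD4 naive cells. Foxp3 effector-type cells had 2.17 (4 h), 2.43 (8 h) and 2.34 (saline), against 1.34, 1.33 and 1.34 in the central gate. At least 5 members were found in 16.2% (4 h), 9.72% (8 h) and 8.04% (saline) of the CD4 memory cells, against 0, 0 and 0.0818% of the CD4 naive cells. Detection of S100a4 itself was sparse even in the CD4 memory gate, at 21.2% (4 h), 22.9% (8 h) and 12.5% (saline) of cells before thinning, against 0.340%, 0.159% and 0.163% of CD4 naive cells and 0.415% of B-type cells, whose median depth was 2113 molecules.

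Across the 9 gates, 7 members had profiles like their common mean. The correlation of log2 CPM with the mean of the 9 members was 0.971 for Lgals1, 0.963 for S100a4, 0.957 for S100a10, 0.954 for S100a6, 0.95 for Anxa2, 0.851 for S100a11 and 0.781 for Ahnak, while it was 0.338 for Anxa6 and 0.0678 for Anxa5. Among pairs, S100a6 with Lgals1 (0.989) and S100a6 with Anxa2 (0.972) were most alike, and Anxa6 was closest to Ahnak (0.756). Of 7605 other genes, those most like the mean were Atp2b4, a calcium pump of the plasma membrane (0.973), Endod1 (0.949), Cpox (0.944), Acot7 (0.940) and Prr13 (0.939). The mean includes the member it is compared with, which pulls the members' values upward, while the other genes are no part of it. These correlations are over 9 gates that share pools and depth, 1 of them the follicular helper gate of 27 cells, and are given as a description only.

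The treatments were compared next. With 1 pool each there is no replicate, so no test was made. Ratios are given with exact 95% intervals that cover counting error only, and a ratio of at least 1.2 or at most its inverse, on at least 50 molecules over both pools, is counted as past the fold. At 4 h, S100a4 and Anxa2 were past it among all T cells, beside 8.11% of all genes that were higher. S100a4 stood at 29.1 CPM in the 4 h pool, 23.6 in the 8 h pool and 22.2 in the saline pool, a ratio of 1.31 (1.13 to 1.53) for 4 h over saline and 1.06 (0.91 to 1.24) for 8 h over saline. The 4 h ratio rested on 140 cells with 412 molecules in the 4 h pool, against 109 cells with 308 molecules in the saline pool. It ranged from 1.23 to 1.51 over 9 alternative settings. The 8 h ratio of S100a4 was less settled, from 0.96 to 1.39 over those settings. It was past the fold with each cell weighted equally (1.3) and with thinned cells (1.39). Anxa2 stood at 44.2 CPM (4 h), 32.2 (8 h) and 34.0 (saline), a ratio of 1.3 (1.15 to 1.47) at 4 h. Its 4 h ratio was under the fold in 4 of the 9 settings: thinned cells (1.08), without the 3% of cells with most molecules (1.1), each cell weighted equally (1.15) and by share of cells (1.18).

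At 8 h, Ahnak was the only member past the fold, beside 6.47% of all genes that were higher. It stood at 140.2 CPM (4 h), 153 (8 h) and 121 (saline), a ratio of 1.27 (1.19 to 1.35) for 8 h over saline and 1.16 (1.08 to 1.23) for 4 h over saline. Over the settings its 8 h ratio ran from 1.17 to 1.29. By share of cells Ahnak was under the fold (1.17) and S100a6 was past it (1.24). S100a4 was also past the fold with each cell weighted equally (1.3) and with thinned cells (1.39), as was Anxa5 with thinned cells (1.21). S100a11 was at 1.10 (1.04 to 1.16) over saline at both times, Lgals1 at 1.06 (4 h) and 1.10 (8 h), and S100a10 and Anxa6 lay between 0.982 and 1.04. For 8 h over 4 h, S100a4 (0.81), S100a6 (0.815) and Anxa2 (0.729) were past the fold downward, beside 7.27% of all genes, but none of them was when every cell counted equally, when cells were thinned or when the 3% of cells with most molecules were left out. The summed level of the 4 NK cell genes among T cells moved in the same order as S100a4, at 31.9 CPM (4 h), 27.3 (8 h) and 20.8 (saline), with each of the 4 detected in every pool, and its part in the ratios was not tested. The T cell gate itself limits B cell and myeloid molecules. Among all kept cells the B cell genes summed to 270.4 CPM (4 h), 266 (8 h) and 215 (saline), and the myeloid genes to 84.4, 85.9 and 46.1 CPM in those pools.

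Within gates, the 4 h ratios were above 1 for all members but Anxa2 in CD4 memory cells. In that gate, 4 members were past the fold upward at 4 h, beside 21.4% of all genes: Ahnak at 1.34 (1.08 to 1.68), S100a4 at 1.3 (0.93 to 1.82), S100a6 at 1.29 (1.04 to 1.61) and S100a11 at 1.23. The 4 plasma cell genes also summed higher in that gate at 4 h (95.5 CPM) than in saline (57.3 CPM, all from Xbp1). Jchain was at 0 in all 3 pools, Sdc1 at 8 h and in saline and Mzb1 in saline. The part of these genes in the ratios was not tested. Anxa2 was past the fold downward at 0.595 (0.38 to 0.92), beside 23.8% of genes that were lower. At 8 h, S100a11 stood highest in that gate, at 1.4 (1.15 to 1.71), beside 18.9% of genes that were higher. In CD4 cells outside the named gates, S100a4 held 75.7 CPM at 4 h, against 27.5 CPM in saline, on 90 molecules, against 32, a ratio of 2.76 (1.82 to 4.26), and S100a6 had a ratio of 2.36 (1.83 to 3.05). Without the single cell with most molecules of the gene these ratios were 2.78 and 2.42. Anxa2 was higher at 4 h in the T cells left over from all CD4 and CD8 gates, at 61.7 CPM, against 35.1 CPM in saline, a ratio of 1.76 (1.35 to 2.30).

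In the CD8 memory gate, Anxa2 had 43.2 CPM (4 h), 46.1 (8 h) and 28.3 (saline), ratios of 1.52 (1.17 to 1.99) at 4 h and 1.63 (1.25 to 2.12) at 8 h over saline. It was the only member past the fold upward in that gate at 4 h, beside 11.6% of all genes. Ahnak had 198 CPM (4 h), 250.4 (8 h) and 186 (saline), a ratio of 1.34 (1.21 to 1.49) at 8 h, and Lgals1 had 153, 192 and 149 CPM in those pools, a ratio of 1.29 (1.14 to 1.45) at 8 h. Anxa2, Ahnak and Lgals1 were the 3 members past the fold upward at 8 h in that gate, beside 10.7% of all genes. S100a6 was past it downward at 4 h, at 0.735 (0.58 to 0.93), beside 9.49% of genes that were lower. Ahnak was also higher at 8 h in both naive gates, at 1.59 (1.18 to 2.15) in CD8 naive and 1.45 (1.02 to 2.08) in CD4 naive cells, and stood at 1.06 (0.85 to 1.32) in the CD4 memory gate.

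Smaller gates gave wider intervals, and the values named here were picked after they were seen. In Foxp3 effector-type cells Lgals1 stood at 544 CPM (4 h), 457 (8 h) and 278 (saline), ratios of 1.95 (1.31 to 2.98) at 4 h and 1.64 (1.08 to 2.55) at 8 h. That gate also held more cells at 4 h (71) and 8 h (68) than in saline (44), as a share of T cells 1.58 times (1.07 to 2.36) and 1.51 times (1.02 to 2.26) the saline share. In gamma delta cells S100a6 was lower at 4 h, with 98.3 CPM, against 299 CPM in saline, but 1 saline cell gave 47.4% of its molecules there, and the ratio of 0.329 came to 0.530 (0.31 to 0.89) without the top cells. In NK-T-type cells S100a4 was at 0.235 (0.09 to 0.54) for 4 h over saline, on 8 molecules, against 23 in saline, and S100a11 was at 0.605 (0.47 to 0.77).

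**Figure D5:**
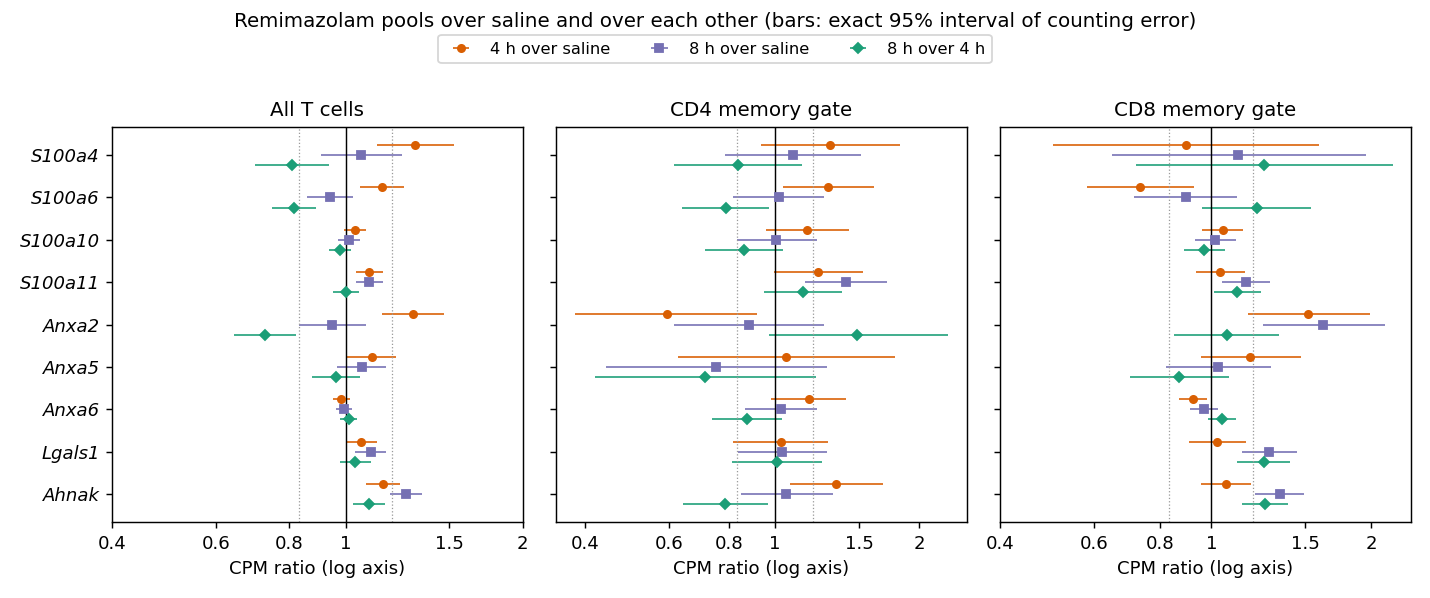
CPM ratio (log axis) of 4 h over saline, 8 h over saline and 8 h over 4 h for each gene in all T cells, the CD4 memory gate and the CD8 memory gate, with exact 95% intervals of counting error; dotted lines mark the fold of 1.2 and its inverse. In all T cells S100a4 (1.31) and Anxa2 (1.3) lie past the line at 4 h and Ahnak (1.27) at 8 h.

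The related lists gave a mixed picture over the treatments. Of the 15 memory genes, 4 were past the fold upward at 4 h over saline, beside 8.11% of all genes: Ccr2 at 1.65, Il18rap at 1.59, Cxcr6 at 1.4 and Id2 at 1.26. At 8 h, Ccr2 (1.43) and Il18rap (1.27) were past it, beside 6.47% of all genes. None of the 10 naive genes was past it in either direction at either time. Among relatives with enough molecules at 4 h, Anxa1 (1.77, on 38 molecules, against 21 in saline), Lgals3 (1.37) and Plaur, the urokinase receptor (1.5), were higher. Of the 18 cytoskeleton genes, Flna, an actin cross-linker, was lower at 4 h (0.825), beside 4.24% of all genes, and none was past the fold at 8 h over saline. The 2 other S100 genes with enough molecules were past it in no comparison.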

How the data were processed

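Spleen T cells of 3 pools (4 h, 8 h and saline, 3 mice each) were captured together, so each cell barcode belongs to 1 pool. Processing up to the counts was by the authors, with version 1.9.1 of the BD Rhapsody WTA Multiplex pipeline, genome GRCm38 and annotation GENCODE M19, per the file headers. The deposited table holds counts of molecules per cell and gene after their correction of molecular identifiers. No aligner is named in the headers. The authors' deposited tag calls assigned 16174 of 17299 putative cells to a pool. The 1063 multiplets, 60 cells with no call and 2 with an unused tag were left out. The labels name the sort as CD45+CD3+CD5+ in some fields and CD45+ in another. Doublets within a pool were not called, and ambient RNA was not corrected.

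Cells with at least 200 genes and under 25% mitochondrial molecules were kept (16123). T cells had at least 2 molecules of T cell receptor genes, and at most 1 of 4 B cell and at most 1 of 5 myeloid genes, of which Clec7a was not analysed here. The named gates left out cells without a clear match. A gene used in the gates, and results that need its name, are not reported here. Molecules of 9 gates in 3 pools (27 sums) were fitted together in edgeR 4.0.16 (quasi-likelihood test, TMM, filterByExpr, pool as a term, R 4.3.3), with Benjamini-Hochberg adjustment over 6995 genes at 0.05 and 35 gate genes left out. The model was tested on simulated data. DESeq2 1.42.0 and other gates, filters and scalings were tried as alternatives. Each pool gives all of its gates, so gates are paired within a pool by design. Intervals are exact (conditional binomial, 95%) in scipy 1.17.1 with Python 3.11.15, and cover counting error only. A count of 0 allows 3 molecules, or 0.212 to 0.216 CPM over all T cells of a pool. Thinning to 1000 molecules left out 30 cells of the 4 h pool, 36 of the 8 h pool and 21 of the saline pool. For the contrasts on thinned cells the gates were drawn again on the molecules left. Shares of thinned cells with a member, and members per thinned cell, kept the gates of the whole cells. Profiles over gates used log2(CPM + 1) of genes with at least 500 molecules. Text names all 9 members, and of each related list the genes past the test or fold and the few with most molecules. The members, lists and gates were chosen with earlier results of these data known.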

Additional observations from a re-analysis of the deposited data

Results flagged for a closer look

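For 8 members the step from naive to memory differed between CD4 and CD8 cells by the test of the difference in edgeR. The log2 change of CD4 memory over naive minus that of CD8 memory over naive was 5.08 for S100a4 (adjusted p = 0.00104), 3.35 for S100a6 (adjusted p = 0.0112) and 3.22 for Ahnak (adjusted p = 2.93e-21). It was 2.46 for Anxa2 (adjusted p = 0.000459), 2.40 for S100a11 (adjusted p = 6.51e-20), 1.47 for S100a10 (adjusted p = 2.66e-15), 1.27 for Lgals1 (adjusted p = 2.43e-05) and 0.37 for Anxa6 (adjusted p = 0.0263). Both changes were positive for all 8. Without the 8 h pool the difference was 1.19 for S100a4 (adjusted p = 0.921), 2.10 for S100a6 (adjusted p = 0.715) and 0.42 for Anxa6 (adjusted p = 0.0833), and without the 4 h pool it was 0.25 for Anxa6 (adjusted p = 0.312). DESeq2 called 6 of the 8, without Lgals1 (adjusted p = 0.158) and Anxa6 (adjusted p = 0.0798), and gates that needed 2 molecules left 5. With gates split by the naive set of genes alone the difference was negative for S100a4 (−0.75), S100a6 (−0.45), Anxa2 (−0.25) and Lgals1 (−0.66), none past the test. The gates were not matched in breadth or depth, and the part of this in the differences was not tested: 24.3% of the CD8 memory cells had Ccl5, and with the CD8 memory gate on Ccl5 the differences fell to 1.56 for S100a6, 1.09 for Anxa2, 0.31 for Lgals1 and 0.17 for Anxa6.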

How the results depend on the processing

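The rises of the 8 members in CD4 memory over CD4 naive cells held under all alternatives run, without each pool, without the pool term (no replicate block) and in DESeq2 included. Of the other values, the widest departures came from gates split by the naive set of genes alone. That split turned CD4 over CD8 memory to −0.12 for S100a10, −0.30 for Anxa2, −0.69 for Lgals1 and −0.063 for Ahnak, with 1 member higher and 1 lower. It turned Foxp3 effector-type over CD4 memory to 0.76 for S100a6 (4 higher). It turned NK-T-type over CD4 memory to 0.35 for S100a10, 0.62 for S100a11 and 0.59 for Ahnak (3 higher, 1 lower). It turned gamma delta over CD8 memory to −0.60 for S100a4, −0.32 for S100a6, −0.10 for S100a10 and −0.99 for Lgals1 (0 higher, 1 lower). It turned the difference between CD4 and CD8 to −0.75 for S100a4, −0.45 for S100a6, −0.25 for Anxa2 and −0.66 for Lgals1 (2 higher), and gave 1 higher for follicular helper cells. With thinned cells gamma delta over CD8 memory had 0 higher and Ahnak at −0.27, and with the Ccl5 gate 0 higher, 1 lower and Ahnak at −0.58. The Ccl5 gate also gave 1 lower for CD8 memory over naive, 5 higher for CD4 over CD8 memory and 5 higher for the difference. The causes of these changes were not tested. DESeq2 gave 3 higher for Foxp3 effector-type over central, 4 for gamma delta and 6 for the difference. It gave 1 for Foxp3 effector-type over CD4 memory, as did the fit of only the gates compared. Gates needing 2 molecules gave 2 higher for Foxp3 effector-type over central, 1 lower for NK-T-type and 5 higher for the difference. Leaving out each pool in turn gave 5 to 6 higher for CD8 memory over naive, 4 to 5 for Foxp3 effector-type over central, 7 to 8 for CD4 over CD8 memory, 2 to 7 for gamma delta and 5 to 8 for the difference, with 1 to 3 lower for NK-T-type and 1 to 5 lower for follicular helper cells. Among the treatments, members past the fold upward at 4 h over saline came to 1 with each cell weighted equally, with thinned cells and by share of cells. At 8 h over saline they came to 2 with equal weights, 3 with thinned cells and 2 without the 3% of cells with most molecules. For 8 h over 4 h, 0 were past it downward under these 3 settings and by share of cells, and 1 upward with thinned cells, and S100a6 turned to 1.06 by share of cells. Over all contrasts and alternatives, 850 member values kept their side of the threshold, 73 lost the call and 22 gained it. Another 18 turned in sign with a call in the main fit, the alternative or both. Turns in sign without a call in either fit are counted among the 850. Depth limits S100a4 most, since its naive values rest on 0 to 6 molecules a pool, and 1 pool a treatment gives no replicate.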
